A study of Fragaria x ananassa with 6 samples.

Results

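A histone H3 gene (gene23941), a beta tubulin gene (gene32477) and a gene for a RALF-like peptide (gene23829, RALF-like 34) were followed in ripe strawberry receptacles in which FaPRE1 was targeted by RNAi. They are 3 genes of the 21098 tested, out of 35116 gene names on the array. They were picked by identifier because the study lists them as higher after FaPRE1 targeting and lower in red than in green receptacles. Their ratios between FaPRE1-RNAi and control receptacles therefore describe that choice and carry no test. FaPRE1 encodes an atypical HLH protein, a regulator without the basic region through which bHLH proteins contact DNA.

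The material was red fruit of Fragaria x ananassa, the cultivated strawberry, injected on the plant with Agrobacterium. The FaPRE1-RNAi receptacles received the pFRN vector with an RNAi insert against FaPRE1, and the control receptacles received the empty pFRN vector, so that injection and vector were common to both groups. The transformation was transient, and each sample was a pool of whole receptacles whose achenes, the true fruits that carry the seeds, had been taken off, so injected and uninjected cells were measured together. There were 3 samples in each group, and an FaPRE1-RNAi and a control sample of the same number shared a two-colour array. FaPRE1-RNAi was read in Cy3 on arrays 1 and 3 and in Cy5 on array 2. The labels are not uniform: a field calls the FaPRE1-RNAi samples overexpressing, against their titles and sources, and the extraction text names floral buds where the sources name fruit. Titles and sources were followed here.

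Histone H3 is one of the core proteins around which DNA is wound, and much of it is made when DNA is copied before cell division. Beta tubulin pairs with alpha tubulin to build microtubules, which form the spindle and guide the laying down of cellulose in growing walls. RALF peptides are small secreted signals that bind receptor kinases of the FERONIA family and leucine-rich repeat extensins at the cell wall, and in Arabidopsis they adjust cell expansion. In the strawberry receptacle, cell division belongs to the young fruit and expansion continues towards ripening. Green receptacles were not analysed here. The study compared green with red receptacles on the same platform and lists the 3 genes as lower in red. Those stage values were not used here.

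Spots well above background made up 44.1 to 60.4% of the gene spots in FaPRE1-RNAi samples and 60.7 to 72.7% in control samples. Against spike-in RNAs, foreign transcripts measured on the same arrays, the median gene signal stood at -5.87 to -5.62 (log2) in FaPRE1-RNAi samples and at -4.20 to -3.19 in control samples. Ratios are given relative to the bulk of the genes of the same array unless spike-ins are named. A probe named FaPRE1 had a log2 ratio of -0.52 (SE 0.11, n = 3, adjusted p = 0.015 in limma), and the gene model assigned to FaPRE1, gene30478, had -0.33 (SE 0.17, n = 3, adjusted p = 0.18) and did not pass the test. The study describes FaPRE1 as silenced and also measured it by quantitative RT-PCR in FaPRE1-RNAi pools, a measurement not used here. The samples were pools of tissue, in which fewer cells of a type and less RNA per cell cannot be told apart. Values against the spike-ins also depend on the amounts of RNA and spike-in and on labelling in each sample, which were not tested.

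Normalized log2 signals of the histone H3 gene23941 were 14.18, 14.05 and 14.41 in FaPRE1-RNAi receptacles 1, 2 and 3, against 10.38, 10.68 and 10.37 in control receptacles. The lowest FaPRE1-RNAi sample lay 3.38 log2 units above the highest control sample. The spread inside either group was small beside that gap, at 14.21 ± 0.18 in FaPRE1-RNAi and 10.48 ± 0.17 in control receptacles (SD, n = 3 each). The log2 ratios of the 3 arrays were 3.80, 3.38 and 4.03, with a mean of 3.74 ± 0.33 (SD, n = 3), a 13.3-fold difference. Among all genes tested, sorted by ratio from the highest down, gene23941 stood at place 16 on array 1, 30 on array 2 and 10 on array 3, and at place 9 by its mean.

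The probe of gene23941 was printed on 2 spots of each array, and the log2 ratios of those spots differed by 0.03 to 0.12. Before normalization, the background-subtracted signals averaged over the spots were 7478, 14692 and 6289 in FaPRE1-RNAi samples 1, 2 and 3 and 3111, 1796 and 4722 in control samples. The unnormalized signal was therefore higher in FaPRE1-RNAi on each array, by 2.40-fold and 1.33-fold where FaPRE1-RNAi was in Cy3 and by 8.18-fold where it was in Cy5.

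For RALF-like 34 (gene23829), the normalized log2 signals were 14.01, 13.85 and 14.26 in FaPRE1-RNAi receptacles 1, 2 and 3, against 9.61, 11.08 and 10.85 in control receptacles. The groups stood 2.77 log2 units apart at their nearest samples. The FaPRE1-RNAi samples lay close together, at 14.04 ± 0.21, whereas control sample 1 was more than 1 log2 unit below the other controls, which gave 10.51 ± 0.79 (SD, n = 3 each). The ratio was accordingly uneven, at 4.40, 2.77 and 3.42 on arrays 1, 2 and 3, with a mean of 3.53 ± 0.82 (SD, n = 3), or 11.6-fold. On the linear scale the arrays ran from 6.83-fold on array 2 to 21.2-fold on array 1. Its place among all genes tested was 7, 86 and 37 on arrays 1, 2 and 3 and 13 by its mean.

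A single spot per array carried the probe of gene23829, so no repeat within an array was at hand. Its background-subtracted signals were 6675, 12709 and 5700 in FaPRE1-RNAi samples 1, 2 and 3 and 1782, 2374 and 6593 in control samples. On array 3 the unnormalized signal was thus lower in FaPRE1-RNAi, at 0.864 of the control signal, while the normalized ratio of the same array was 3.42.

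After normalization, the beta tubulin gene32477 differed less than the other 2 genes and had the smallest spread between arrays. Its normalized log2 signals were 9.74, 9.73 and 9.61 in FaPRE1-RNAi receptacles 1, 2 and 3, against 8.14, 8.04 and 7.98 in control receptacles. The groups did not overlap, with 1.47 log2 units between their nearest samples and means of 9.69 ± 0.07 in FaPRE1-RNAi and 8.05 ± 0.08 in control receptacles (SD, n = 3 each). The log2 ratios were 1.60, 1.69 and 1.63, a mean of 1.64 ± 0.05 (SD, n = 3), or 3.12-fold. The gene stood at places 468, 481 and 723 on the arrays and at place 507 by its mean, so that 2.40% of the genes tested had a higher mean ratio.

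The mean ratio of the tubulin, the smallest of the 3, was the only one whose sign differed between the scales tried. Its background-subtracted signals, averaged over 2 spots, were 337, 612 and 227 in FaPRE1-RNAi samples 1, 2 and 3, against 544, 223 and 773 in control samples. The order of the groups in these unnormalized values followed the dye, since FaPRE1-RNAi was at 0.619 and 0.294 of control on arrays 1 and 3, where it was in Cy3, and at 2.75-fold on array 2, where it was in Cy5. The ratios of its repeat spots differed by 0.08 to 0.33 within an array, more than the SD of 0.05 between the array ratios. No spot of the 3 genes was saturated or marked as an outlier, and all of them were well above background in every sample.

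**Figure D1:**
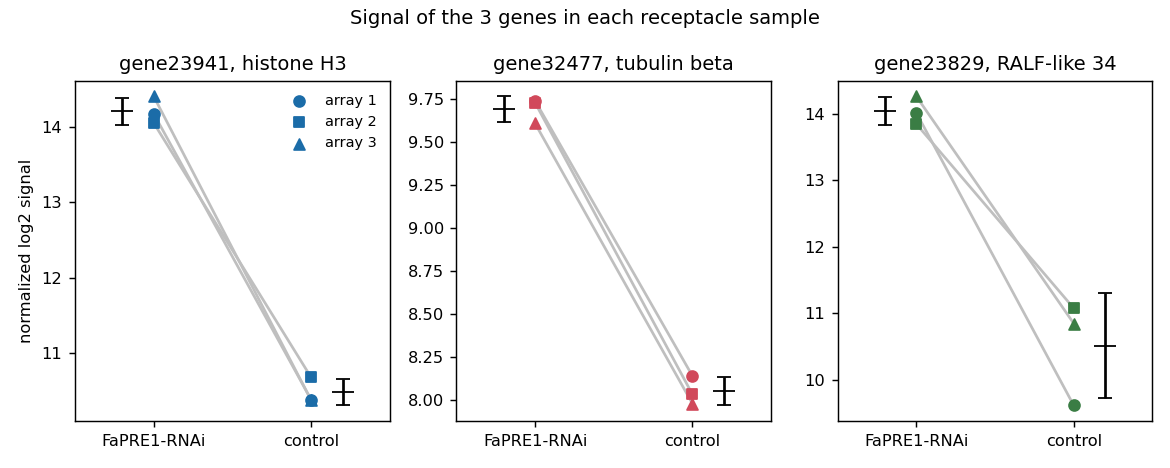
Normalized log2 signal (y axis, with its own range in each panel) of gene23941, gene32477 and gene23829 in FaPRE1-RNAi (left) and control (right) receptacles. Points are samples, grey lines join the samples of an array, and bars beside them give the mean and SD (n = 3). The groups do not overlap in any panel, and the widest spread is that of gene23829 in control samples, from 9.61 to 11.08.

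All 3 genes had groups that did not overlap and were higher in FaPRE1-RNAi on every array, which is how they came to be chosen. Over all genes tested, 24.7% had every FaPRE1-RNAi signal above every control signal. An adjusted p under 0.05 was reached by 34.8% of the genes, 16.9% higher and 17.9% lower in FaPRE1-RNAi, and 6.19% were both called higher and beyond 2-fold. Centred on their own means over the 6 samples, the histone and RALF genes differed by a root mean square of 0.42 log2 units, and the tubulin gene differed from them by 1.06 and 1.08.

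**Figure D2:**
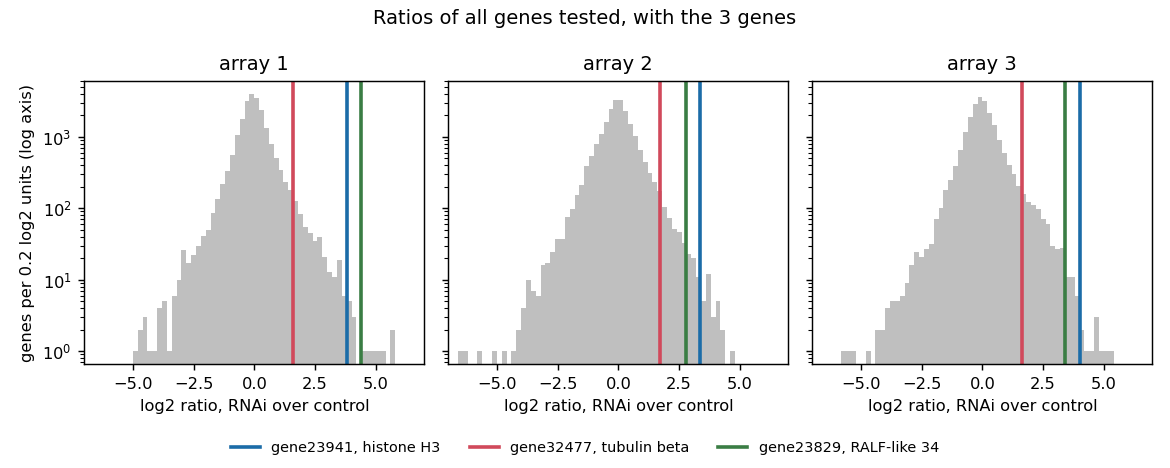
Number of genes (y axis, log scale) by log2 ratio of FaPRE1-RNAi over control (x axis, bins of 0.2) on each array, for the 21098 genes tested. Coloured lines mark the 3 genes: the tubulin stays between 1.60 and 1.69, the histone is highest of the 3 on arrays 2 and 3, and the RALF gene is highest on array 1 at 4.40.

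Relative to the spike-ins, gene23941 had log2 values of 0.73, 0.75 and 0.74 in FaPRE1-RNAi samples 1, 2 and 3, against -1.49, -0.64 and -0.51 in control samples. Values of gene23829 on that scale were 0.56, 0.55 and 0.60 in FaPRE1-RNAi samples and -2.29, -0.23 and -0.03 in control samples. The groups of these genes did not overlap there, but each group mixes dyes. The share of all genes without overlap on that scale was not computed. For gene32477 the groups overlapped, at -3.74, -3.83 and -4.05 in FaPRE1-RNAi samples and -4.02, -3.65 and -3.13 in control samples. FaPRE1-RNAi and control samples were also compared inside each dye, across arrays. Cy3 sets FaPRE1-RNAi samples 1 and 3 against control 2, and Cy5 sets FaPRE1-RNAi sample 2 against controls 1 and 3. Each such value thus rests on a single sample of 1 group. The histone differed by 1.37 in Cy3 and by 1.76 in Cy5, and the RALF gene by 0.82 in Cy3 and by 1.71 in Cy5. The tubulin had -0.25 in Cy3 and -0.26 in Cy5, so it was above the bulk of the genes in FaPRE1-RNAi but not above the spike-ins. These values carry no test, and the median of all genes tested was -2.13 on the spike-in scale.

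**Figure D3:**
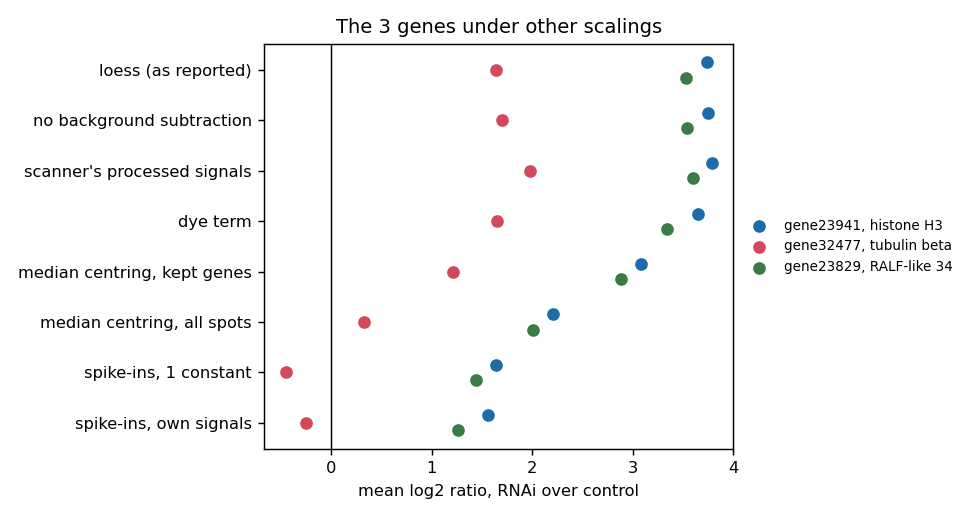
Mean log2 ratio of FaPRE1-RNAi over control (x axis) of the 3 genes under each way of scaling the arrays (y axis). The histone and RALF points stay right of 0, between 1.26 and 3.79, while the tubulin point crosses to -0.45 and -0.25 against the spike-ins.

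The histone gene was set beside the other genes with a histone description at hand. The study's list of genes higher after FaPRE1 targeting, and lower in red than in green receptacles, holds 6 more. Their direction is therefore no independent evidence. Another gene described as histone H3, gene29776, had 14.49, 14.42 and 14.69 in FaPRE1-RNAi receptacles and 11.68, 11.41 and 11.39 in control receptacles, a mean log2 ratio of 3.04 ± 0.24 (SD, n = 3). The remaining H3 gene, gene02245, had 12.27, 12.29 and 12.20 in FaPRE1-RNAi and 10.06, 9.55 and 9.51 in control receptacles, a ratio of 2.55 ± 0.29. Neither gene had groups that overlapped. The 4 remaining histones of that list had mean ratios of 2.59 to 3.09, below the 3.74 of gene23941, and all 6 stayed above 0 against the spike-ins, the lowest at 0.46.

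Coding sequences of plant H3 genes are close to one another, and cultivated strawberry carries several copies of each gene. Probe sequences were not at hand, so how much of each H3 probe's signal comes from the other H3 genes was not tested. The same uncertainty holds for the beta tubulins.

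A different picture came from genes whose descriptions were at hand whatever their response, those of a stretch of the study's table of all genes (1679 genes with a description, 1055 tested). In that stretch 16.5% of the genes tested were called higher and 15.8% lower. It holds 4 genes described as histone-like or histone superfamily, of which 3 were tested and 0 were called in either direction on the loess scale. Log2 ratios of FaPRE1-RNAi over control were -0.12 for gene00637 (SE 0.13, adjusted p = 0.50), 0.34 for gene01189 (SE 0.15, adjusted p = 0.13) and -0.22 for gene01119 (SE 0.12, adjusted p = 0.21; n = 3 each). The last was well above background in only 1 of 3 FaPRE1-RNAi samples and passed the filter through the control samples. Each of the 3 was called in 1 other setting: gene01119 lower with processed signals (-1.43, adjusted p = 0.014), gene00637 lower with median centring over the kept genes (-0.78, adjusted p = 0.036) and gene01189 higher without array 1 (0.51, adjusted p = 0.039). Signals of gene01189 were 13.60, 13.71 and 13.78 in FaPRE1-RNAi receptacles, against 13.61, 13.26 and 13.20 in control receptacles, with overlap at array 1. The descriptions of these genes do not say whether they encode core histones, or of which class. On the loess scale their ratios lay between -0.22 and 0.34, against 2.55 to 3.74 for the 3 genes described as H3. Over the other scalings relative to the arrays' own genes they ran from -1.66 (gene00637, median centring of all gene spots) to 0.67 (gene01119, median centring over the kept genes), against 1.01 to 3.79 for the H3 genes, and against the spike-ins from -2.32 to -1.75, with the H3 genes at 0.46 to 1.64.

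Genes that copy DNA accompany histone synthesis in dividing cells, and they were examined as the nearest functional group. MCM2 (gene00207) and MCM4 (gene01614) encode subunits of the helicase that opens DNA for copying, and both stand in the stretch described whatever the response. MCM2 gave 8.09, 8.71 and 8.24 in FaPRE1-RNAi receptacles and 6.40, 6.90 and 6.72 in control receptacles. It was higher in FaPRE1-RNAi on 3 of 3 arrays, with a log2 ratio of 1.68 (SE 0.12, n = 3, adjusted p = 0.00080 in limma). MCM4 gave 8.35, 8.65 and 8.10 in FaPRE1-RNAi and 6.75, 7.05 and 6.92 in control receptacles, a ratio of 1.46 (SE 0.13, n = 3, adjusted p = 0.0016). Against the spike-ins both were negative, at -0.41 for MCM2 and -0.63 for MCM4.

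Of the 5 replication genes tested in that stretch, gene00210 was also called higher, a subunit of chromatin assembly factor 1, which places histones on new DNA. Its log2 ratio was 0.59 (SE 0.15, n = 3, adjusted p = 0.031). It stood at -0.83 with median centring of all gene spots and -1.50 against the spike-ins, where the medians of all genes were -0.86 and -2.13. The gene was called in 5 of 10 other settings of the test, whereas MCM2 and MCM4 were called in all 10. Median centring of all gene spots is not among these 10, and under it 0 genes were called by limma (9061 at an unadjusted p under 0.05). An ORC5 gene (gene01620) had 0.20 (adjusted p = 0.31) and was called in none of these settings. MCM9 (gene01629), well above background in only 1 of 3 FaPRE1-RNAi samples and kept through the control samples, was not called at -0.27 (adjusted p = 0.11). It was called lower with processed signals (-1.22, adjusted p = 0.010) and with an intensity trend (adjusted p = 0.047), while median centring over the kept genes gave 0.46. The study's list adds 4 replication genes with ratios of 1.98 to 2.70, all higher, among them a replication protein A subunit (gene26094, 2.70), thymidine kinase (gene21651, 2.35), which makes a DNA precursor, and gene13294, for chromosome transmission fidelity 8 (2.13).

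Of 7 cell cycle genes in the stretch, 5 were tested and 1 was called. Cyclin-D3-1 (gene00189), of a class that in Arabidopsis promotes entry into DNA synthesis, gave 9.50, 9.67 and 9.48 in FaPRE1-RNAi receptacles and 8.01, 8.33 and 8.56 in control receptacles. Its log2 ratio was 1.25 (SE 0.15, n = 3, adjusted p = 0.0030), but -0.07 with median centring of all gene spots, where the median of all genes was -0.86, and -0.84 against the spike-ins. A cyclin family gene (gene01564), well above background in 2 of 3 FaPRE1-RNAi samples, had 0.37 (adjusted p = 0.053). It was called higher in 5 of the 10 other settings, among them processed signals (1.41, adjusted p = 0.0056) and median centring over the kept genes (1.43, adjusted p = 0.00021). An AUGMIN subunit gene (gene01227), for a complex that seeds spindle microtubules, had -0.30 (adjusted p = 0.083) and was called lower with median centring over the kept genes (-0.83, adjusted p = 0.025) and without the replicate block (adjusted p = 0.044). Not called either were a cyclin-dependent kinase regulatory subunit gene (gene01106, 0.28, adjusted p = 0.14) and a cohesion factor gene (gene01168, -0.11, adjusted p = 0.48). Other chromatin genes comprised 5 of the study's list, all higher, at 1.80 to 2.42, led by a high mobility group protein (gene00778, 2.42), the DNA methyltransferase CMT3 (gene10077, 2.41) and an HMG-Y-related protein (gene06164, 1.98). In the stretch, 1 of 3 chromatin genes tested was called higher, EBS (gene00537, 0.83, SE 0.19, n = 3, adjusted p = 0.023), a reader of histone H3 marks in Arabidopsis. EBS was at -0.35 with median centring of all gene spots and -1.26 against the spike-ins, where the medians of all genes were -0.86 and -2.13. Neither the chromatin remodeling gene00901 (-0.07, adjusted p = 0.63) nor the histone H3 methyltransferase gene01396 (-0.13, adjusted p = 0.42) was called.

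Tubulins and other microtubule genes were compared with gene32477. The study's list holds 2 more beta tubulins, and their ratios were larger and less even. Tubulin beta-1 (gene13266) had 11.82, 11.74 and 11.17 in FaPRE1-RNAi receptacles and 9.90, 8.82 and 9.35 in control receptacles, a log2 ratio of 2.22 ± 0.61 (SD, n = 3). Tubulin beta-2 (gene18775) had 11.29, 11.26 and 10.89 in FaPRE1-RNAi receptacles and 8.85, 8.11 and 8.58 in control receptacles, a ratio of 2.63 ± 0.45 (SD, n = 3). Both ratios were largest on array 2, at 2.92 and 3.15, the array on which FaPRE1-RNAi was in Cy5. Against the spike-ins they were 0.13 and 0.54, where gene32477 had -0.45. The microtubule-associated protein AIR9 (gene28952) resembled gene32477 in size, with a ratio of 1.55 ± 0.17 (SD, n = 3).

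In the stretch described whatever the response, 9 microtubule genes were listed and 5 tested, of which 1 was called higher and 2 lower. A dynein light chain gene (gene00323) was higher in FaPRE1-RNAi, with a log2 ratio of 0.87 (SE 0.11, n = 3, adjusted p = 0.0036), called in all 10 other settings. It was at -0.06 with median centring of all gene spots and -1.22 against the spike-ins, where the medians of all genes were -0.86 and -2.13. A katanin p80 subunit gene (gene00765), for a complex that severs microtubules, had -0.50 (SE 0.12, n = 3, adjusted p = 0.023) and the kinesin gene01572, for a motor protein, had -0.37 (SE 0.11, n = 3, adjusted p = 0.048). Both genes were dim, gene00765 being well above background in 1 of 3 and gene01572 in 2 of 3 FaPRE1-RNAi samples. They passed the filter only through the control samples, which favours a lower call. These calls were made in only 5 and 4 of the 10 other settings, and the ratios turned to 0.07 and 0.32 with median centring over the kept genes. Kinesins gene01622 (0.27, adjusted p = 0.41) and gene01657 (0.03, adjusted p = 0.82) did not pass the test.

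Besides gene23829, the stretch contained a further RALF gene. RALF-like 17 (gene01137) had 10.23, 10.04 and 9.88 in FaPRE1-RNAi receptacles, against 8.54, 8.32 and 7.38 in control receptacles. The groups did not overlap, and the log2 ratio was 1.97 (SE 0.19, n = 3, adjusted p = 0.0017), higher on 3 of 3 arrays and -0.12 against the spike-ins. The 2 RALF genes were uneven on different arrays, since the largest ratio was on array 1 for gene23829 and on array 3 for gene01137, at 2.50.

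Partners of RALF peptides were described in the study's list only, apart from an extensin gene that was too dim to be tested. The receptor kinase FERONIA (gene04244) had 8.83, 9.16 and 8.73 in FaPRE1-RNAi receptacles and 7.38, 7.15 and 6.94 in control receptacles, a log2 ratio of 1.75 ± 0.28 (SD, n = 3). Leucine-rich repeat extensins, wall proteins that bind RALF peptides, had ratios of 2.16 ± 0.07 (gene26361) and 1.54 ± 0.03 (gene05176; SD, n = 3 each). All 3 ratios were smaller than that of gene23829, and against the spike-ins FERONIA and gene05176 were at -0.34 and -0.56 and gene26361 at 0.07. With median centring of all gene spots gene05176 was at -0.005, the only one of the 21 growth genes selected by the study that was below 0 there. On that scale the median of all genes was -0.86.

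Over the growth lists as a whole, the 21 genes selected by the study besides the 3 members were all called higher, at a median log2 ratio of 2.35. That count repeats how they were selected. Of the 22 growth genes tested in the stretch described whatever the response, 7 were called higher and 2 lower, 13 were not called, and the median was 0.23, against -0.04 over all genes tested and -0.03 over the whole stretch. The median moved with the setting: it was 0.06, against 0.02 over all genes, with median centring over the kept genes, -0.81 against -0.86 with median centring of all gene spots, and 0.09 without array 1. In percent, 31.8 were called higher, against 16.9% of all genes tested. The 2 lower calls came from genes that passed the filter only through the control samples. A stricter filter on dim probes, with 17 of these genes tested, called 7 higher and 0 lower. Against the spike-ins 14 of the 21 and 0 of the 22 had a ratio above 0, beside 238 of the 21098 genes tested.

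**Figure D4:**
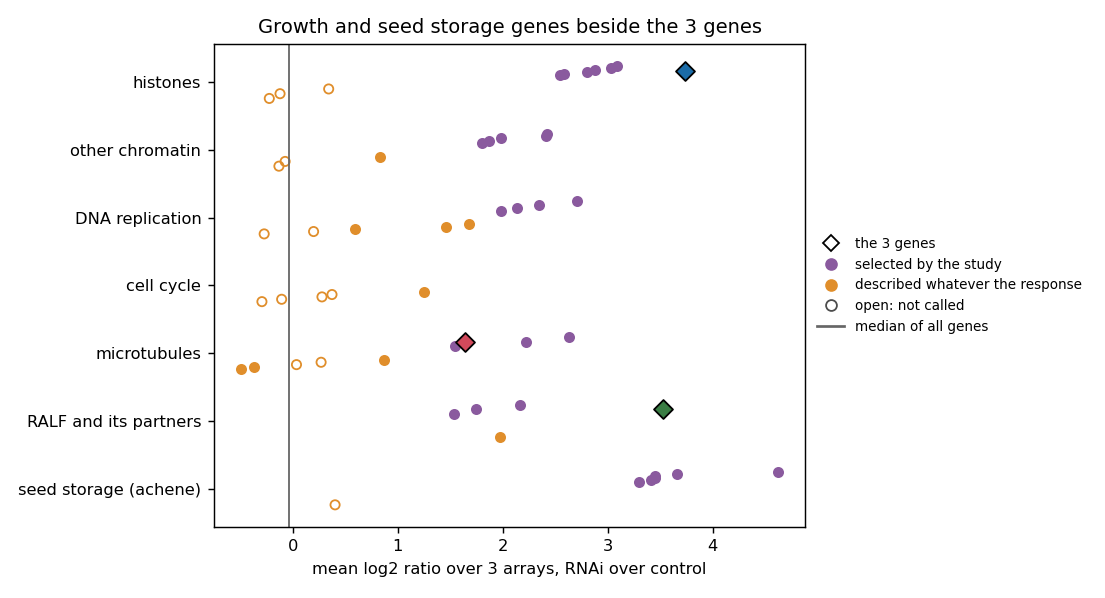
Mean log2 ratio of FaPRE1-RNAi over control (x axis) of genes in each list (y axis), relative to the bulk of the genes. Diamonds are the 3 genes, purple points the genes selected by the study, orange points those described whatever their response, and open points those not called. On this loess scale the H3 diamond lies at 3.74. The 3 tested orange genes described as histone-like or histone superfamily lie between -0.22 and 0.34. Other scalings move these orange points to between -1.66 and 0.67, and to between -2.32 and -1.75 against the spike-ins.

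For each of the 3 genes, the described genes with the most similar signals over the 6 samples were found by the root mean square difference of log2 signals centred on each gene's mean. Because the samples form 2 groups, this measure mostly ranks genes by how close their ratio is. Nearest to the histone gene were a laccase (gene09404, 0.13 log2 units), an aspartyl protease (gene19731, 0.15) and a proline-rich protein (gene22714, 0.23). Nearest to the tubulin gene were a subtilisin-like protease (gene05450, 0.07), a patellin (gene13798, 0.08) and a PLAT domain protein (gene16342, 0.08). The RALF gene had no described neighbour as close, the nearest of these being a fasciclin-like arabinogalactan protein (gene18252, 0.30), a receptor-like kinase (gene04602, 0.30) and a vicilin-like seed protein (gene29934, 0.34). Among all genes tested, gene18252 was at place 5, so that closer genes had no description at hand. All of these were genes selected by the study, and 1382 other described genes were compared.

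Seed storage genes, markers of the achenes, were also higher in FaPRE1-RNAi where the study had selected them. Of 7 such genes (legumins, oleosins and a vicilin), 6 were called higher and came from the study's list, at 3.30 to 4.63 on the log2 scale, among them the legumins gene08096 (4.63), gene08095 (3.66) and gene08094 (3.45). The remaining one, the oleosin gene01466, came from the stretch described whatever the response and was not called, at 0.40 (SE 0.22, n = 3, adjusted p = 0.21). The direction of the 6 repeats their selection on these samples, and 16.9% of all genes tested were called higher. Against the spike-ins the 6 ran from 1.21 to 2.53 and gene01466 was at -1.69, where gene32477 had -0.45. All 7 were well above background in all 6 samples, so none was at 0 in either group. The log2 of their summed normalized signal was 17.12 to 17.28 in FaPRE1-RNAi receptacles and 13.31 to 13.81 in control receptacles. To that sum gene01466 added little, with mean log2 signals of 8.86 in FaPRE1-RNAi and 8.46 in control receptacles. Their part in the results for the histone, tubulin and RALF genes was not tested.

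Marker genes of the ripe receptacle went the other way. All 6 (FaMYB10, FaAAT1, FaAAT2, FaQR, FaPG1 and FaEGS2) were well above background in every sample, and the log2 of their summed signal was 13.61 to 13.99 in FaPRE1-RNAi receptacles, against 17.08 to 17.34 in control receptacles. The largest differences were those of FaEGS2, eugenol synthase (log2 ratio -3.70), FaPG1, polygalacturonase (-3.65), and FaQR, quinone oxidoreductase (-3.48). These genes too were selected by the study, as lower on the same samples and higher in red than in green receptacles.

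**Figure D5:**
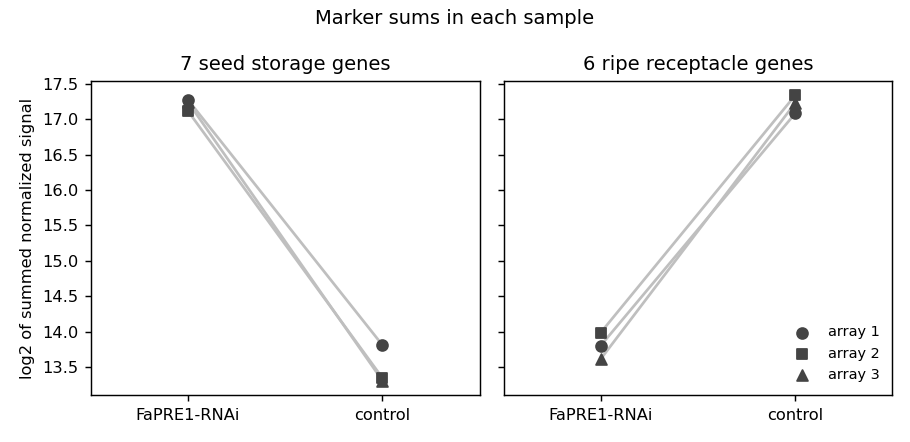
Log2 of the summed normalized signal (y axis) of 7 seed storage genes (left) and 6 ripe receptacle genes (right) in FaPRE1-RNAi and control receptacles, with lines joining samples of an array. The seed storage sum is at least 17.12 in FaPRE1-RNAi samples and at most 13.81 in control samples, and the ripe receptacle sum lies the other way round.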

How the data were processed

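Total RNA of 3 FaPRE1-RNAi and 3 control samples was hybridised on 3 two-colour 60-mer arrays, and per the labels each array holds the FaPRE1-RNAi and control sample of 1 replicate number. The deposited files are scanner output of Agilent Feature Extraction 10.7, a version taken from the submitters' processing notes. Their values are intensity, per the file headers: uncorrected medians of spot signal and of local background, and processed signals that the authors' software had background-subtracted, detrended and dye-normalized. Per the file headers, other columns hold spot flags. Each channel counted as a sample for the authors. Log ratios of the deposited files were not used.

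Median signals were corrected by normexp (offset 50) and normalized within arrays by loess, with control and outlier spots at weight 0 (limma 3.58.1 in R 4.3.3). The filter kept 21218 probes, those with 50% or more of their spots well above background on every array for FaPRE1-RNAi, for control or for both. Spots and probes of a gene were averaged, and signals per sample were taken after Aquantile scaling. The test was limma's lmFit with eBayes on the array ratios, adjusted by Benjamini-Hochberg over all 21098 genes and called at an adjusted p under 0.05. The array thus acts as a block. The deviations of paired samples from their group means correlated across genes at 0.43, -0.04 and 0.17. The study's general methods call fruit pools independent without saying whether they shared plants, so p-values measure the spread between these samples, which may be technical. The procedure was tested on simulated data in which few genes changed, evenly in both directions, and the groups had no shift between them. That test therefore does not cover a shift of most genes such as the one seen against the spike-ins.

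Spike-in scaling used 10 control probes. Values with 1 constant add the within-dye shift of -2.09 to each ratio, and other spike-in values use each gene's own signals. The 3 genes and all lists were chosen with earlier results of these data known. Genes named are the 3, genes of like description and their partners, the 3 largest ratios of each other list, the 3 most similar described genes, and, chosen after their values were seen, the genes called in the stretch described irrespective of response with those tested beside them. Descriptions came from the study's tables, of which the table of all genes was at hand in part. Alternatives concerned background, scaling, filters, block, dye, eBayes trend, the methods' t-test, probe choice, thresholds and leaving out arrays. Probe sequences, genome coordinates and protein sequences were not used here.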

Additional observations from a re-analysis of the deposited data

How the results depend on the processing

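With 3 arrays, no value of a single gene rests on more than 3 ratios. The log2 ratios of the histone gene23941 and the RALF gene23829 stayed positive under every setting tried, while the tubulin gene32477 was negative against the spike-ins, at -0.45 with 1 constant and -0.25 on its own signals. On those scales gene23941 had 1.64 and 1.56 and gene23829 had 1.44 and 1.26. Median centring of all gene spots gave 2.20 for gene23941, 0.33 for gene32477 and 2.004 for gene23829, and median centring over the kept genes gave 3.08 for gene23941 and 1.21 for gene32477. The tubulin ratio also moved to 1.70 without background subtraction and to 1.98 with processed signals. Without 1 array at a time the ratios ran from 3.59 to 3.91 for gene23941, 1.61 to 1.66 for gene32477 and 3.09 to 3.91 for gene23829.

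Of all genes, 7350 were called. Median centring of all gene spots called 0 genes in limma (9061 at an unadjusted p under 0.05), 0 of the growth genes described whatever the response and 0 of those selected by the study, and shifted the median of all genes to -0.86. An adjusted p under 0.01 called 3419 genes and a change beyond 2-fold as well 2298, with 4 of the 22 growth genes described whatever the response. Leaving out array 2 gave 4304 genes, array 3 gave 3458 and array 1 gave 7119. Without the replicate block that pairs the samples of an array, 7358 genes were called, and 8 of the 22 higher. The methods' t-test called 4933 after Benjamini-Hochberg. Of 32 growth genes described whatever the response, 10 were too dim in both groups to be tested.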
